A study of Mus musculus with 2 samples.

Results

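The Pi16-low interstitial cells of uninjured muscle were 282 cells that carried fibroblast transcripts, little or no Pi16, and transcripts of Smoc2, Sfrp4 or Myoc. They were chosen by their own counts of unique molecular identifiers (UMIs, each standing for a captured transcript molecule). A cell needed at least 200 detected genes, at most 20% mitochondrial UMIs, at least 5 UMIs of Dcn (decorin, a matrix proteoglycan of fibroblasts), at most 1 of Pi16, and at least 3 of Smoc2, Sfrp4 and Myoc together. It could hold at most 5 UMIs of the tendon gene Fmod and none of Tnmd (tendon), Pecam1 (endothelium) or Ptprc (leukocytes). The 282 cells made up 5.24% of the 5385 kept uninjured cells (exact Clopper-Pearson 95% interval, 4.66 to 5.87%) and came from a series of 10070 deposited barcodes. Because these same counts chose the cells, the levels of the gate genes are a description throughout.

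The series holds 2 single-cell libraries from the tibialis anterior, a shin muscle, of C57B/6 mice aged 12 weeks. The injured library was taken 24 hours after 1.2% barium chloride, which makes muscle fibres degenerate, was injected into the muscle, and the other library is labelled uninjured. Both libraries carry the same treatment text, so it is not clear from the sources used whether the uninjured muscle was injected with anything, and neither gives the number of mice. With 1 library per condition and cells that are not replicates, no test between conditions or cell groups was possible, and every interval below covers counting error only.

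Fibro-adipogenic progenitors are Pdgfra-positive mesenchymal cells that lie between the fibres of skeletal muscle, make much of its connective tissue, and can give rise to fat and scar-forming cells. Across mouse tissues, fibroblasts rich in Pi16, Dpp4 and Cd55 are known from the sheaths around vessels and from fascia, and fibroblasts rich in Col15a1 from the tissue's interior, close to basement membranes. Of the genes that define the Pi16-low cells, Smoc2 encodes a secreted calcium-binding protein of the SPARC family, Myoc encodes myocilin, a secreted glycoprotein best known from the drainage tissue of the eye, and Sfrp4 and Sfrp2 encode secreted proteins that bind Wnt ligands. Whether the cells act as progenitors was not measured, so they are called Pi16-low interstitial cells here.

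The injured library held 39014762 UMIs in 4489 barcodes (median 7282 per barcode), and the uninjured one 22994502 UMIs in 5581 barcodes (median 3237). The Pi16-low cells held 1142965 of the uninjured UMIs, with 1850 to 12867 per cell (median 3670), and a median of 1537.5 detected genes. The libraries shared 33 barcode sequences, of which 1 was a Pi16-low cell and 0 were also among the injured cells that passed the same gate. Haemoglobin made up 1.06% of the UMIs of the Pi16-low cells, and 11810 of those 12141 UMIs lay in 5 cells. Levels below are CPM: the UMIs of a gene summed over the cells of a group, as a share of all their UMIs scaled to 1000000. They are 3′ end counts, which are not divided by gene length, with exact Poisson 95% intervals.

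The promoters of Myoc and Pi16 are shown because the Pi16-low cells are defined by the presence of transcripts like those of the first and the near absence of the second. RefSeq (GRCm38.p6) gave both, and the 120 bases before each start on the plus strand are printed, chr1:162639030-162639149 for Myoc and chr17:29318762-29318881 for Pi16. Capitals mark the letters TATAAA, searched on both strands (TATAAA or TTTATA), which 6.34% of 32851 RefSeq promoter windows of this length held.
Myoc: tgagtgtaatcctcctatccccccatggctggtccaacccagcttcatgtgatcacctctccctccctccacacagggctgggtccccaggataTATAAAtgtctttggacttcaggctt
Pi16: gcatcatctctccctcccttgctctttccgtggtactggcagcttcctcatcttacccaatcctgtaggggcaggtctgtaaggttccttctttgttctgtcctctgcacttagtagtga
The Myoc window held the motif 26 bases before the start, and the Pi16 window held it on neither strand. The gene position used here for Pi16 is chromosome 17, 29317680 to 29330593, plus strand, so its window lies inside the gene. What that window holds depends on the start that RefSeq gave. A match of letters is a description and no evidence that a factor binds there.

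Smoc2 and Myoc were the genes that carried most cells through the gate. Smoc2 (chromosome 17, 14279506 to 14404790, plus strand, GRCm38) had 3414 UMIs in 257 of the 282 cells, with a median of 7 UMIs and a highest value of 107. Myoc (chromosome 1, 162639155 to 162649693, plus strand) had 3613 UMIs in 243 cells, with a median of 7.5 and a highest value of 83. Both transcripts were detected together in most cells: 154 cells held Smoc2 and Myoc without Sfrp4, and 67 held all 3. Another 35 cells held Smoc2 alone, 11 Myoc alone, 11 Myoc with Sfrp4, 3 Sfrp4 alone and 1 Smoc2 with Sfrp4.

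Sfrp4 and Sfrp2 were carried by minorities of the cells. Sfrp4 had 817 UMIs in 82 cells, with a median of 5 UMIs in those cells. Sfrp2 was detected in 26 cells, with 408 UMIs, of which 260 lay in the 2 highest cells. Pdgfra, the receptor that marks fibro-adipogenic progenitors and that the gate did not use, had 429 UMIs spread thinly over 193 cells, with at most 8 in any cell. Pi16 itself was at 0 in 205 cells and at 1 in the other 77.

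To set shares of cells side by side, every cell was thinned to 1500 UMIs. The comparison groups were 284 Pi16-high interstitial cells (the same gate with at least 3 Pi16 UMIs and no condition on Smoc2, Sfrp4 and Myoc), 377 tendon-type cells (at least 5 Dcn, 1 Tnmd and 6 Fmod UMIs, at most 1 of Pi16 and none of Pecam1 or Ptprc) and 2214 endothelial cells, which should lack these transcripts. Median depths were 3670 UMIs in Pi16-low, 3892 in Pi16-high, 4251 in tendon-type and 2922 in endothelial cells. Smoc2 was detected in 81.2% of thinned Pi16-low cells (interval 76.1 to 85.6%; 91.1% before thinning), 30.99% of Pi16-high cells, 13.5% of tendon-type cells and 1.31% of endothelial cells. Pdgfra was detected in 43.6% of Pi16-low cells (37.7 to 49.6%; 68.4% before thinning), 29.2% of Pi16-high cells (24.0 to 34.9%), 1.33% of tendon-type cells and 0.181% of endothelial cells. Of the marker genes given for these cells, Smoc2, Myoc and Pdgfra stood above both other connective tissue groups, and Sfrp4 and Sfrp2 did not. Smoc2, Sfrp4 and Myoc chose the Pi16-low cells and neither other group, so the higher shares of Smoc2 and Myoc were largely fixed by the gate. Pdgfra and Sfrp2 were not part of it. Sfrp4 was detected in 22.0% of Pi16-low cells (17.3 to 27.3%), 22.9% of Pi16-high cells and 23.1% of tendon-type cells, against 0.497% of endothelial cells. Sfrp2 was detected in 6.38% of Pi16-low cells (3.83 to 9.90%), against 16.5% of Pi16-high cells (12.4 to 21.4%) and 0.0903% of endothelial cells. In summed counts the order differed for Sfrp2, at 357 CPM in Pi16-low and 223 CPM in Pi16-high cells, since a few Pi16-low cells held most of its UMIs.

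**Figure D1:**
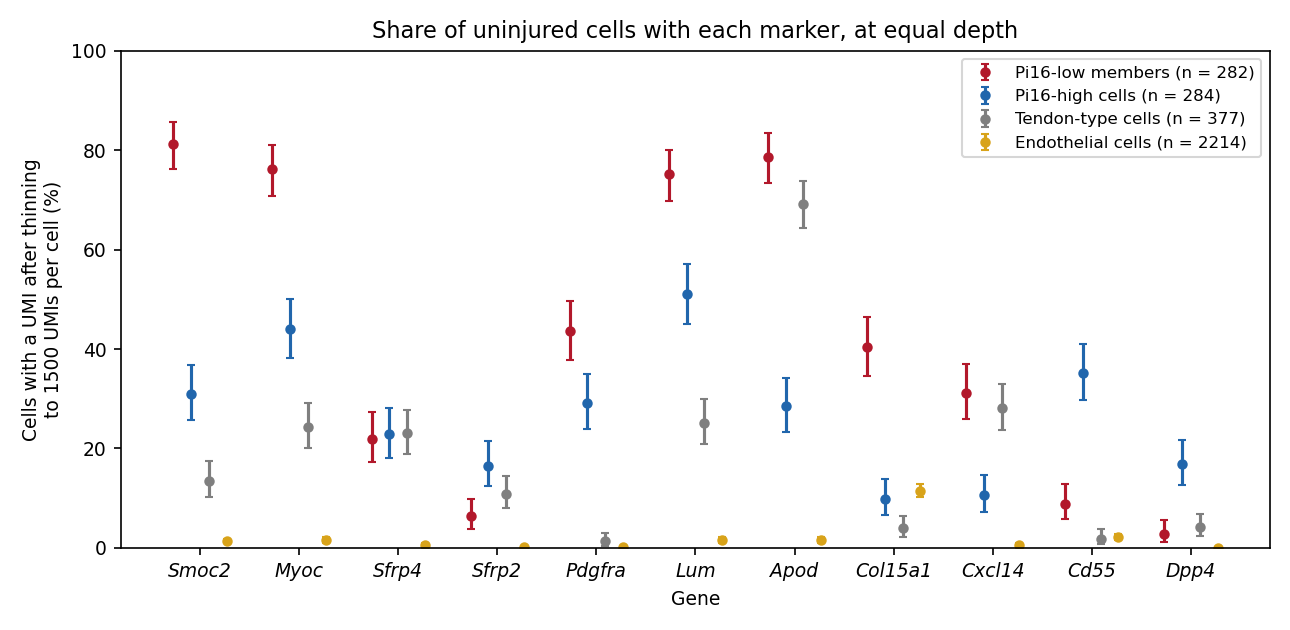
Share of cells (%, vertical axis) with at least 1 UMI of each gene after thinning every cell to 1500 UMIs, in 282 Pi16-low, 284 Pi16-high, 377 tendon-type and 2214 endothelial cells; bars are exact 95% intervals for counting error. Smoc2 (81.2%), Myoc (76.2%), Lum (75.2%) and Col15a1 (40.4%) were highest in Pi16-low cells, whereas Cd55 (8.87%) and Dpp4 (2.84%) were lower there than in Pi16-high cells.

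Few cells lay at the limits of the gate on Smoc2, Sfrp4 and Myoc or on Dcn, and more lay at the limit on Pi16. The sum of Smoc2, Sfrp4 and Myoc was exactly 3 in 13 cells, which had 346 CPM of Smoc2 and 288 CPM of Pdgfra, and exactly 2 in 11 cells just outside, which had 178 CPM of Smoc2 and 672 CPM of Pdgfra. The 77 cells with 1 Pi16 UMI had 2102 CPM of Smoc2, and 54 cells with 2 Pi16 UMIs, just outside, had 2722 CPM. The 17 cells kept out by a single Tnmd UMI had 2231 CPM of Smoc2. Among cells that met every other condition, none had 3 to 6 Dcn UMIs.

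The most abundant transcripts of the Pi16-low cells were those of connective tissue cells. Malat1, a nuclear RNA, led at 46495 CPM, followed by Gsn (gelsolin, an actin-severing protein) at 30367.5 CPM and Dcn at 20494 CPM. The genes that followed were S100a6, a calcium-binding protein gene, at 7799 CPM, and Fth1, a ferritin chain gene, at 6936 CPM. Matrix genes were among the next, with 6466 CPM of Sparc, 5728 CPM of Col3a1, 5548 CPM of Mgp and 4223 CPM of Col1a2. Apod (apolipoprotein D, chromosome 16, 31296192 to 31314808, minus strand), a lipid-binding secreted protein, had 4403 CPM and was found in 252 cells, with a median of 7 UMIs and a highest value of 273. Lum (lumican, a small proteoglycan of collagen fibrils) was found in 243 cells with a median of 5 UMIs. The chemokine genes were more uneven: Cxcl14 was found in 117 cells and Ccl11 in 157, with medians of 0 and 1 UMIs.

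Transcripts of other cell types were present. Erythroid markers summed to 10641 CPM, of which 11831 of 12162 UMIs lay in 5 cells, and 10 tenocyte markers to 753 CPM, with 3 or more UMIs in 94 cells. Summed over 10 markers each, endothelial genes had 178 CPM, satellite cell genes 227 CPM, immune genes 40.2 CPM (Cd52 and Laptm5 at 0), pericyte and smooth muscle genes 310 CPM, Schwann and other glial genes 620 CPM and muscle fibre genes 1277 CPM in the Pi16-low cells. The glial and fibre sums rested on few cells, with 464 of 709 glial UMIs and 960 of 1459 fibre UMIs in 5 cells each. Of 6 mesothelial markers, 4 (Upk3b, Wt1, Lrrn4 and Upk1b) were at 0. The part of these transcripts in the results below was not tested, except where values without such cells are given.

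The Pi16-low cells were not uniform, and the genes of the gate divided them along lines that other genes followed. The sets were 82 cells with any Sfrp4 UMI, 74 Myoc-led cells (no Sfrp4 and at least as many Myoc as Smoc2 UMIs) and 126 Smoc2-led cells (no Sfrp4 and more Smoc2 than Myoc). Their median depths were 4311, 3549 and 3513 UMIs. They were cut from the same cells by gene counts, so the values that follow describe them and test nothing.

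Sfrp2, Dkk2, C3 and Ly6a were highest in Sfrp4-positive cells. Sfrp2 had 942 CPM in Sfrp4-positive cells (847 to 1045), 185 CPM in Myoc-led cells and 4.07 CPM in Smoc2-led cells. Of its 408 UMIs in all Pi16-low cells, 260 lay in the 2 highest cells, and the order without those cells was not tested. Dkk2, another secreted Wnt regulator, had 509 CPM in Sfrp4-positive cells, 94.5 CPM in Myoc-led cells and 20.4 CPM in Smoc2-led cells. Both genes followed the same order, with Smoc2-led cells far below the other sets. C3, the central complement protein, had 531, 295 and 87.6 CPM in Sfrp4-positive, Myoc-led and Smoc2-led cells. Ly6a, which encodes the surface antigen Sca-1 used to sort mouse mesenchymal progenitors, had 2959, 1676 and 692 CPM in the same order. Fst (follistatin, an inhibitor of activins and myostatin) broke the pattern, since it was as high in Myoc-led cells, at 495 CPM, as in Sfrp4-positive cells, at 390 CPM, and had 38.7 CPM in Smoc2-led cells.

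Cxcl14, Ccl11, Col15a1 and Hsd11b1 were highest in Smoc2-led cells. Cxcl14 had 2425 CPM in Smoc2-led cells, 720.0 CPM in Myoc-led cells and 504 CPM in Sfrp4-positive cells. Ccl11 (eotaxin, a chemokine for eosinophils) had 1788, 651 and 358 CPM in Smoc2-led, Myoc-led and Sfrp4-positive cells. Both chemokines were thus lowest where Sfrp2 was highest. Col15a1, a collagen at the border of basement membranes, had 778, 244 and 146 CPM in Smoc2-led, Myoc-led and Sfrp4-positive cells, and Hsd11b1, the enzyme that regenerates active glucocorticoid, had 336, 29.1 and 42.5 CPM in the same order. Pdgfra differed little among the sets, at 387 CPM in Smoc2-led, 411 CPM in Myoc-led and 334 CPM in Sfrp4-positive cells, and Lum was found in all of them, at 2967, 1360 and 1295 CPM in the same order. Gdf10, a member of the TGF-beta superfamily, was highest in Myoc-led cells, at 360 CPM, against 98.2 CPM in Sfrp4-positive and 87.6 CPM in Smoc2-led cells.

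**Figure D2:**
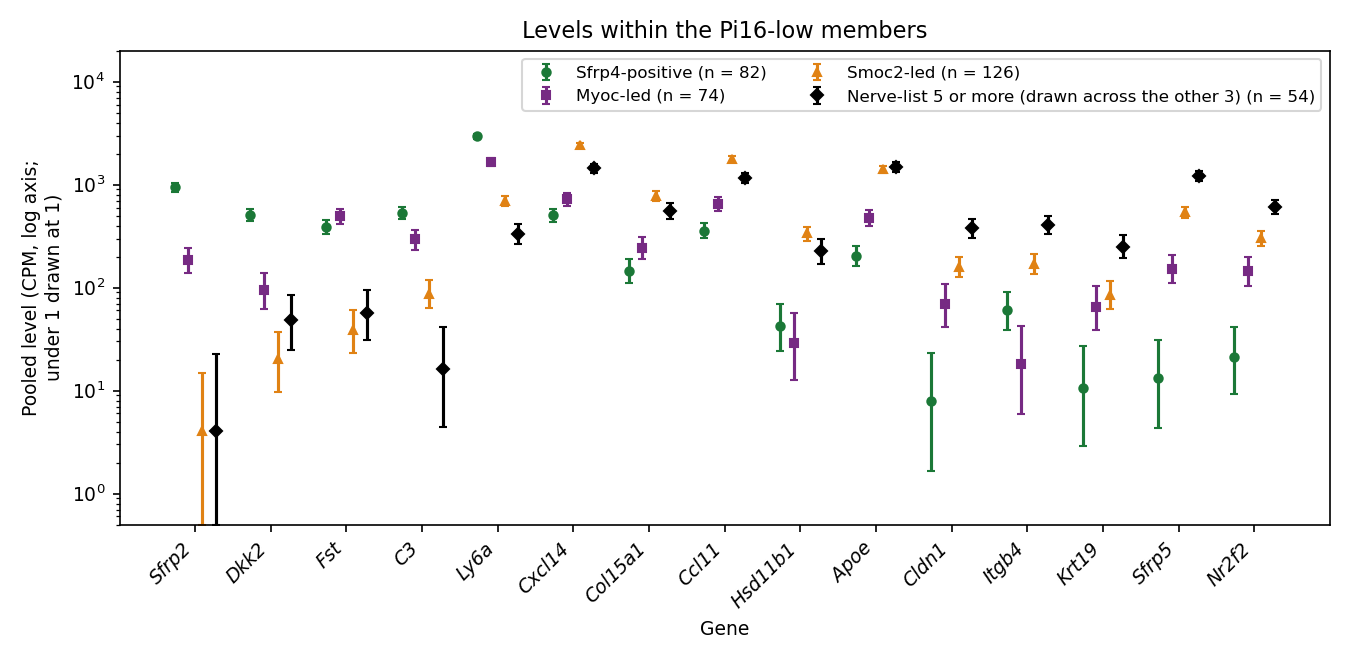
Pooled level (CPM, log axis; values under 1 drawn at 1) of 15 genes in 82 Sfrp4-positive, 74 Myoc-led and 126 Smoc2-led Pi16-low cells, and in the 54 cells with 5 or more UMIs of a nerve-associated fibroblast list, which cut across the other sets. Sfrp2 and Dkk2 were highest in Sfrp4-positive cells, Cxcl14 and Hsd11b1 in Smoc2-led cells, and Cldn1 and Sfrp5 in the nerve-list cells. Of the 408 Sfrp2 UMIs of the Pi16-low cells, 260 lay in the 2 highest cells.

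Some Pi16-low cells carried genes of the perineurium, the cell layer that wraps nerve bundles, but they did not form a single cluster, as given below. Of a list of 16 nerve-associated fibroblast genes, 54 cells held at least 5 UMIs, 3 held 4 and 108 held none; the limit of 5 was set after these counts were seen. These 54 cells, of which 38 were Smoc2-led, 9 Myoc-led and 7 Sfrp4-positive, had a median of 3896.5 UMIs, and the other 228 had 3562. List genes such as Cldn1 (claudin-1, a tight junction protein), at 380 CPM in the 54 cells and 6.70 CPM in the 228, and Itgb4 (integrin beta 4), at 408 CPM in the 54 and 12.3 CPM in the 228 cells, chose the cells and are given as description. Among genes outside the list, Sfrp5 had 1208 CPM in the 54 cells and 13.4 CPM in the other 228. Gjb2 (connexin 26, a gap junction protein) had 590 CPM, with 146 UMIs in 11 of the 54 cells, and 1.12 CPM in the other 228. The transcription factor gene Nr2f2 had 610 CPM in the 54 and 50.3 CPM in the 228 cells. Fibroblast genes ran the other way: Gsn had 15054 CPM in the 54 cells and 34602 CPM in the 228, Col3a1 3118 CPM in the 54 and 6450 CPM in the 228 cells, and Dpt (dermatopontin) 162 CPM in the 54 and 675 CPM in the 228 cells. Glial transcripts were also higher there, with Mbp at 307 CPM in the 54 and 70.4 CPM in the 228 cells. Their part in the difference was not tested.

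Clustering of all kept uninjured cells placed the Pi16-low cells mainly in 3 of 22 clusters, which held 264 of the 282. A cluster led by Cxcl14, Smoc2, Lum and Ccl11 held 162 of them (57.4%), among these 104 of the Smoc2-led cells. Another, led by Myoc, Sfrp2, Sfrp4 and Fst, held 81 (28.7%), among these 62 of the Sfrp4-positive cells. A cluster of 29 cells led by Gjb2, Sfrp5, Cldn1 and Krt19 held 21 (7.45%), all with at least 5 UMIs of the nerve list, and 0 of the Pi16-high cells. More of the Pi16-low cells with at least 5 UMIs of that list, 25, lay in the Cxcl14-led cluster, and 6 lay in the Myoc-led one. Pi16-high cells were also present in the 2 largest of these clusters, with 46 of 284 in the Cxcl14-led and 31 in the Myoc-led one. The cluster with most of the Pi16-high cells, 202 of 284, held 8 Pi16-low cells. Of the remaining 10, 4 fell in a cluster led by haemoglobin genes, 2 each in clusters led by pericyte and by myelin genes, and 1 each in clusters led by tendon and by glial genes. The genes that define a cluster were part of the clustering and are no result.

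The first comparison set the Pi16-low cells against the Pi16-high cells of the same muscle, which asks how cells with few and with many Pi16 transcripts differ in other genes. Of 8618 genes with at least 20 UMIs in both groups together, 650 (7.54%) were at least 2-fold higher and 442 (5.13%) at least 2-fold lower in Pi16-low cells, with a median log2 ratio over all these genes of 0.09. Both groups were cut by Pi16, and the Pi16-low cells also by Smoc2, Sfrp4 and Myoc, so the counts describe the groups and test nothing. In list medians, a lower count under 3 was raised to 3.

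The genes that accompany Pi16 were almost all lower. Of 25 measured genes of a Pi16-type list, 24 were at least 2-fold lower and 0 higher in Pi16-low cells (median log2 ratio -2.46); Igfbp6 was the exception. Cd55, a surface inhibitor of complement, had 60.4 CPM in Pi16-low and 373 CPM in Pi16-high cells, 6.19-fold lower (4.79 to 8.09). The list was chosen with earlier results of these data known and is not independent evidence of its direction. Its member Smpd3, a neutral sphingomyelinase gene, was 96.6-fold lower (57.4 to 177), at 12.2 CPM in Pi16-low and 1183 CPM in Pi16-high cells. Genes outside the list were as far apart: Mrgprg, an orphan receptor gene, had 7 UMIs in Pi16-low cells, all in 1 cell, and 1095 in Pi16-high cells, 149-fold lower (71.9 to 371). Postn (periostin, a matricellular protein) was 11.7-fold lower (9.69 to 14.1), at 107 CPM in Pi16-low and 1245 CPM in Pi16-high cells. Fn1, which encodes fibronectin, had 585 CPM in Pi16-low and 4787 CPM in Pi16-high cells, 8.18-fold lower (7.55 to 8.87). The other genes furthest below were Ptx3 (pentraxin 3, 3.50 CPM in Pi16-low and 350 CPM in Pi16-high cells), Daglb (a diacylglycerol lipase, 32.2-fold), Col6a5 (a collagen VI chain, 30.7-fold), Aif1l (28.2-fold), Il18 (24.5-fold), Car8 (18.5-fold) and, from the list, Dact2 (14.0-fold), Wnt2 and Opcml (9.98-fold). None of these 9 genes was found in more than 6.74% of Pi16-low cells, whereas each was found in 21.5 to 59.5% of Pi16-high cells. These genes were named for their low ratios and for a minimum share of cells in the higher group. Both sets of shares were therefore largely fixed by that choice.

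Genes of the tissue's interior were higher or stayed within 2-fold. Of 20 measured Col15a1-type genes, 9 were at least 2-fold higher in Pi16-low cells and 0 lower (median log2 ratio 0.96). Apod had 4403 CPM in Pi16-low and 857 CPM in Pi16-high cells, 5.14-fold higher (4.80 to 5.50). Col15a1 had 441 CPM in Pi16-low and 156 CPM in Pi16-high cells, 2.82-fold higher (2.38 to 3.35). Apod was detected in 78.7% of thinned Pi16-low cells (73.5 to 83.4%), 28.5% of Pi16-high cells and 1.49% of endothelial cells. The difference from Pi16-high cells was thus spread over most cells. Tendon-type cells carried Apod nearly as often, in 69.2% of thinned cells, and Cxcl14 in 28.1%, against 31.2% of Pi16-low cells. Lum (25.2%) and Col15a1 (3.98%) were found less often in tendon-type cells. Lum was 2.04-fold higher (1.90 to 2.19) and Cxcl14 2.31-fold higher (2.12 to 2.53). Endothelial cells, which make basement membrane themselves, had Col15a1 in 11.4% of cells, against 40.4% of Pi16-low and 9.86% of Pi16-high cells.

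Transcripts of matrix genes differed in some families and not in others. Of 16 elastic fibre genes, 7 were at least 2-fold lower in Pi16-low cells and 0 higher (median -0.56). Fbn1 (fibrillin-1, the scaffold of elastic microfibrils) had 431 CPM in Pi16-low and 1508 CPM in Pi16-high cells, 3.50-fold lower, and Mfap5 had 1123 CPM in Pi16-low and 2959 CPM in Pi16-high cells, 2.63-fold lower. Of 8 genes of hyaluronan synthesis and binding, 4 were lower and 0 higher (median -1.28): the synthases Has1 (3.33-fold, 1.95 to 5.97) and Has2 (3.07-fold, 1.62 to 6.24), Ugdh, which makes a sugar donor (3.26-fold), and the hyaluronan-binding protein Tnfaip6 (8.32-fold, 6.62 to 10.6). The fibrillar collagens did not separate the groups. Of 7, 1 was higher and 0 lower by 2-fold; Col1a1 had 3144 CPM in Pi16-low and 3031 CPM in Pi16-high cells, a ratio of 1.04 (0.990 to 1.09), and the ratio of Col3a1 was 0.730. Among 18 basement membrane genes, 5 were higher (Egfl6, Col4a4, Col18a1, Col15a1 and Nid2) and 1 lower (Ntn4), with a median of 0.13 that lay near the 0.09 of all genes.

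**Figure D3:**
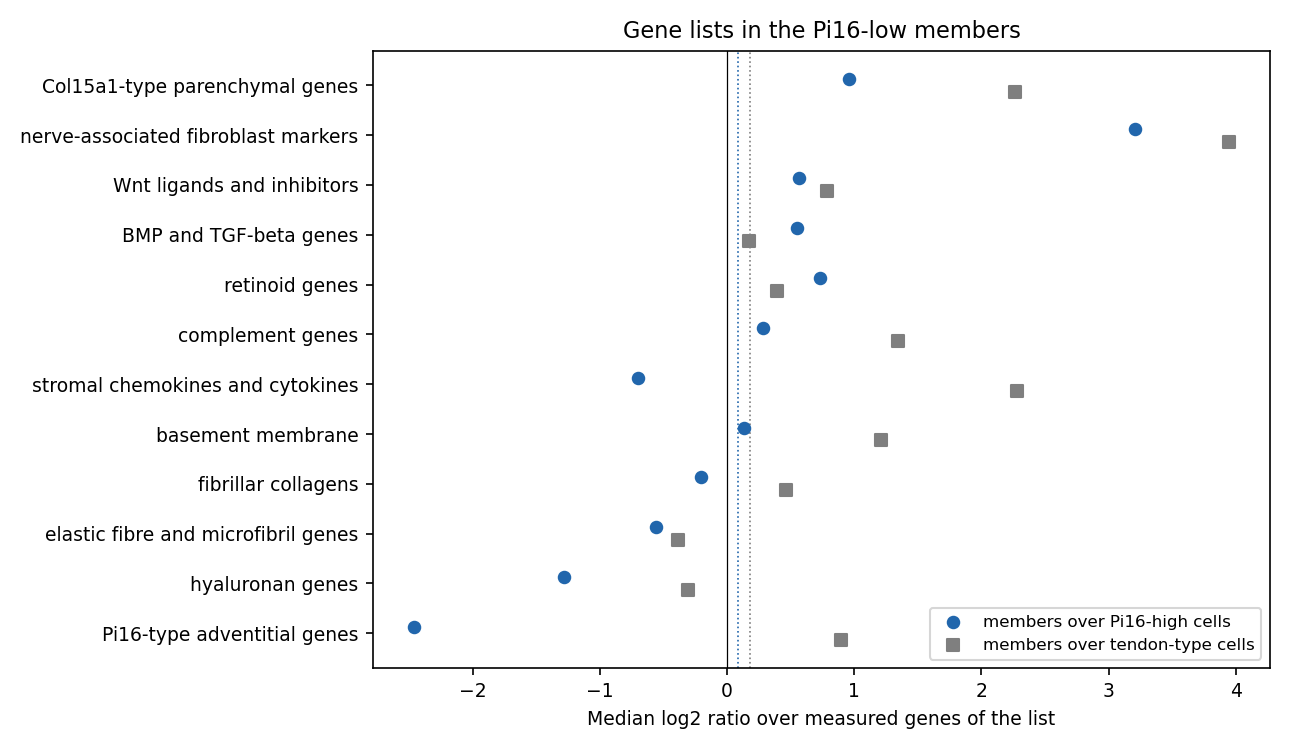
Median log2 ratio (horizontal axis) of 12 gene lists in Pi16-low over Pi16-high cells (circles) and in Pi16-low over tendon-type cells (squares); dotted lines are the medians of all genes tested, 0.09 and 0.18. The Pi16-type list lay at -2.46 against Pi16-high cells, whereas the nerve-associated list lay far above the all-gene line in both comparisons.

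Secreted signals of the Wnt, BMP, retinoid and complement systems differed gene by gene. Of 11 measured Wnt genes, 4 were at least 2-fold higher and 1 lower in Pi16-low cells (median 0.57): Rspo3, which amplifies Wnt signalling, had 53.4 CPM in Pi16-low and 4.99 CPM in Pi16-high cells, 10.7-fold higher (4.64 to 30.3), and the inhibitor genes Dkk3 (4.12-fold, 2.15 to 8.53), Sfrp1 (2.42-fold, 1.65 to 3.60) and Sfrp5 (17.2-fold, 10.8 to 29.0) were higher too. Sfrp5 rested on the 54 nerve-list cells: the other 228 Pi16-low cells had 13.4 CPM, against 15.8 CPM in Pi16-high cells, and the uninjured glial cells had 951 CPM. Wnt2, a ligand, was 25.3-fold lower (10.6 to 79.1).

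Of 26 BMP and TGF-beta genes, 6 were higher (Inhba, Bmp7, Bmp5, Fstl3, Bmper and Id1) and 3 lower (Fstl1, Tgfbr2 and Ltbp1) in Pi16-low cells, with a median of 0.55. Bmp5 had 89.2 CPM in Pi16-low and 31.6 CPM in Pi16-high cells, 2.82-fold higher. Of 14 retinoid genes, 6 were higher (among them Crabp2, Stra6, Adh1, Rbp4 and Rara) and 1 was lower (median 0.73). Stra6, which encodes a membrane receptor for retinol uptake, was 8.42-fold higher (2.99 to 32.8), with 121 CPM in the 54 nerve-list cells and 2.23 CPM in the other 228, against 3.33 CPM in Pi16-high cells, whereas Aldh1a3, which makes retinoic acid, was 13.8-fold lower (5.10 to 52.3). Complement genes divided: C2 was 3.32-fold higher (2.46 to 4.52), and C3 had 284 CPM in Pi16-low and 1522 CPM in Pi16-high cells, 5.37-fold lower (4.77 to 6.06). Of 38 transcription factor genes, 9 were higher and 0 lower, among them the mesodermal homeobox genes Meox1 (3.76-fold) and Meox2 (2.94-fold, 2.37 to 3.66).

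Some of the furthest genes came from the nerve-list cells. Of 14 measured nerve-associated genes, 13 were at least 2-fold higher in Pi16-low cells and 0 lower (median log2 ratio 3.21). Without the 54 cells that held at least 5 UMIs of the list the median was 0.77. This setting applied the same limit to both groups and left 228 Pi16-low and 276 Pi16-high cells. Since the list itself chose the cells left out, a lower median of the list was fixed in advance. Cldn1 had 87.5 CPM in Pi16-low and 3.33 CPM in Pi16-high cells, 26.3-fold higher (9.96 to 98.4). Nr2f2 had 171 CPM in Pi16-low and 20.8 CPM in Pi16-high cells, a log2 ratio of 3.04, and 1.53 without the 54 cells. Angptl7, an angiopoietin-like secreted protein (chromosome 4, 148495183 to 148500460, minus strand), kept its difference without them: it had 202 CPM in Pi16-low and 20.8 CPM in Pi16-high cells, 9.72-fold higher (6.42 to 15.3), and a log2 ratio of 2.92 without the 54 cells. Angptl7 also had 1764 CPM in tendon-type cells and was a leading gene of a tendon cluster. Klf5, a zinc finger factor, was 6.60-fold higher (4.44 to 10.1), and Thbs1 (thrombospondin-1) 4.91-fold higher. Others among the furthest were Gfra1, a co-receptor for the growth factor GDNF (5.26-fold), Cdh11, a cadherin of mesenchymal cells (4.83-fold), Csrp1 (4.83-fold), Vit (vitrin, a matrix protein, 4.58-fold) and Ldb2 (4.45-fold). Myl9, at 105 CPM in Pi16-low and 22.5 CPM in Pi16-high cells, had 1559 CPM in the mural cells of the same library, more than 10 times its level in either group. Summed glial markers had 620 CPM in Pi16-low and 459 CPM in Pi16-high cells, pericyte markers 310 CPM in Pi16-low and 162 CPM in Pi16-high cells, and tenocyte markers 753 CPM in Pi16-low and 299 CPM in Pi16-high cells, with 3 of 5 measured (Cpxm2, Chad and Thbs4) at least 2-fold higher. Erythroid markers had 10641 CPM in Pi16-low and 5276 CPM in Pi16-high cells, and fibre markers 1277 CPM in Pi16-low and 808 CPM in Pi16-high cells. Immune markers had 40.2 CPM in Pi16-low and 266 CPM in Pi16-high cells, where 298 of 320 UMIs lay in 5 cells and 268 of them in 1. The part of these transcripts in the differences was not tested.

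Across all 670 interstitial cells that passed the gate without the conditions on Pi16, Smoc2, Sfrp4 and Myoc, the levels could be followed along Pi16 counts of 0, 1, 2, 3 to 5, 6 to 12 and 13 to 92 (246, 82, 58, 75, 67 and 142 cells). Apod had 5142, 2908, 2855, 1573, 1114 and 341 CPM along these bins, lower at every step. Fn1 had 489.6, 650.4, 1183, 1588, 4696 and 6614 CPM, higher at every step. Other genes did not run in 1 direction. Lum stayed between 1470 and 1882 CPM up to 3 to 5 Pi16 UMIs and had 560.4 CPM at 13 to 92. Myoc was highest in the middle, with 4191 CPM at 1 and 4030.3 CPM at 2 Pi16 UMIs, against 2179.7 CPM at 0 and 1104 CPM at 13 to 92. Sfrp4 was highest at 2 Pi16 UMIs, with 1318 CPM, against 515 CPM at 0. Median depth was 3391, 3991, 4126, 4331, 3316 and 3730 UMIs along the bins, higher at each step up to 3 to 5 Pi16 UMIs and lower beyond. Its part in these levels was not tested.

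**Figure D4:**
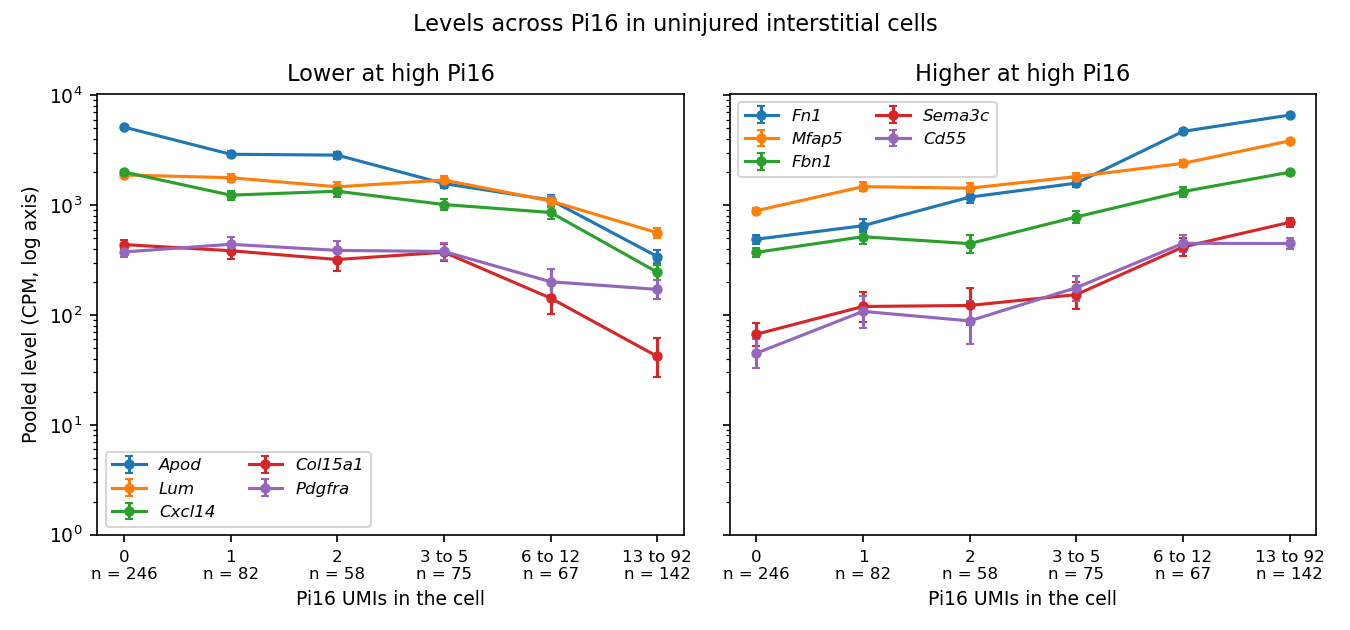
Pooled level (CPM, log axis) of 10 genes in uninjured interstitial cells grouped by Pi16 UMIs per cell (0, 1, 2, 3 to 5, 6 to 12 and 13 to 92; 246, 82, 58, 75, 67 and 142 cells), with exact Poisson 95% intervals. Apod was lower at every step (5142 to 341 CPM) and Fn1 higher at every step (489.6 to 6614 CPM), whereas Lum and Pdgfra changed mainly beyond 5 Pi16 UMIs.

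The second comparison set the Pi16-low cells against the tendon-type cells, the other Pi16-low connective tissue cells of the muscle; both comparisons share the Pi16-low cells. Of 9222 genes tested, 1131 (12.3%) were at least 2-fold higher and 570 (6.18%) at least 2-fold lower in Pi16-low cells, with a median log2 ratio of 0.18 over all genes. All 10 tenocyte markers, among which neither Tnmd nor Fmod was counted, were lower (median -6.30). Both groups were cut by the tendon genes Tnmd and Fmod, so that direction was largely fixed in advance. The Pi16-low cells were also cut by Smoc2, Sfrp4 and Myoc, so the counts describe the groups and test nothing. Scx, the tendon transcription factor, was 163-fold lower (63.6 to 600), and Kera (keratocan) was 644-fold lower (251 to 2364), at 3.50 CPM in Pi16-low and 2253 CPM in tendon-type cells. Ptx4 had 0 UMIs in Pi16-low and 842 in tendon-type cells. It was 173-fold lower with 3 counts as the floor over the group (interval, at least 140-fold). Cilp2 (2 UMIs in Pi16-low cells; ratio 0.00123), Wif1, a secreted Wnt inhibitor (273-fold, 107 to 1004), and Chad (chondroadherin, 139-fold, 90.7 to 224) completed the furthest below.

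Of 15 fibro-adipogenic core genes, 8 were at least 2-fold higher in Pi16-low than in tendon-type cells and 2 (Col1a1 and Col1a2) lower, with a median of 1.68. Pdgfra had 375 CPM in Pi16-low and 11.3 CPM in tendon-type cells, 33.2-fold higher (21.4 to 54.1). Ly6a was 11.4-fold higher (9.99 to 12.9) and Cd34 9.25-fold higher. Dpep1, a membrane dipeptidase, had 396 CPM in Pi16-low and 2.16 CPM in tendon-type cells, 184-fold higher (71.3 to 677). Scara5, a scavenger receptor that takes up ferritin, had 151 CPM in Pi16-low and 2.70 CPM in tendon-type cells, 56.2-fold higher (23.6 to 175). Efemp1 and Sult5a1 were 54.8-fold higher (20.9 to 204 for both), and Ifi204, with 3 UMIs in tendon-type cells, had a ratio of 54.1 (18.0 to 267). Sfrp4 went the other way, 2.01-fold lower in Pi16-low cells.

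The collagens split by type. Col1a1 had 3144 CPM in Pi16-low and 18300 CPM in tendon-type cells, 5.82-fold lower, and Col1a2 was 5.23-fold lower, whereas Col3a1, the collagen of loose connective tissue, was 3.20-fold higher. Of 9 fibrillar collagens, 3 were at least 2-fold higher and 4 lower. In the basement membrane list 11 of 18 were higher and 3 lower (median 1.21), among the higher ones Col4a1 (3.33-fold higher) and Lama2, the laminin chain of the muscle fibre sheath (2.36-fold higher). Of 26 matricellular genes, 5 were higher and 14 lower (median -1.41), with Tnc (tenascin-C) 108-fold and Thbs4 44.5-fold lower.

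Chemokine and complement genes were higher in Pi16-low than in tendon-type cells as lists. Of 13 measured chemokine and cytokine genes, 10 were at least 2-fold higher and 0 lower (median 2.28): Ccl11 had 1043 CPM in Pi16-low and 17.3 CPM in tendon-type cells, 60.5-fold higher (42.6 to 88.8), and Cxcl12, the ligand of Cxcr4, had 472 CPM in Pi16-low and 79.3 CPM in tendon-type cells, 5.96-fold higher. Of 11 complement genes, 7 were higher and 0 lower (median 1.34), with C4b 10.4-fold and C3 5.65-fold higher. C3 therefore stood between the other groups, lower in Pi16-low than in Pi16-high cells and higher than in tendon-type cells. Of 20 Col15a1-type genes, 18 were higher and 0 lower (median 2.27). Satellite cell markers summed to 227 CPM in Pi16-low and 888 CPM in tendon-type cells, and endothelial markers to 178 CPM in Pi16-low and 278 CPM in tendon-type cells. Glial markers summed to 620 CPM in Pi16-low and 198 CPM in tendon-type cells, with 6 of 7 measured at least 2-fold higher (median 1.85), fibre markers to 1277 CPM in Pi16-low and 771 CPM in tendon-type cells, and erythroid markers to 10641 CPM in Pi16-low and 4532 CPM in tendon-type cells. Their part in the differences was not tested.

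The third comparison asked what cells of the same gate looked like a day after injury. The gate passed 199 of 4421 injured cells (4.50%, 3.91 to 5.15%) and 282 of 5385 uninjured cells (5.24%, 4.66 to 5.87%). Since the gate counts raw UMIs and the injured cells held a median of 14728 UMIs against 3670 in the uninjured ones, it did not draw equivalent cells from the libraries. The gate genes themselves differed: Smoc2 had 628 CPM in injured and 2987 CPM in uninjured cells of the gate, and Myoc 140 CPM in injured and 3161 CPM in uninjured cells, 22.6-fold lower (20.5 to 24.9). Values are therefore also given with every barcode thinned to 1843 UMIs before gating, which passed 59 injured and 363 uninjured cells; this setting, called equal depth below, changes both the depth and the cells that pass. Xist had 0 UMIs in the 199 injured cells (3 counts in these cells allow a UMI in up to 1.51% of them) and 1209 UMIs in 262 of the 282 uninjured cells, and Y-linked genes had 297 UMIs in 141 injured cells and 0 in uninjured cells (a UMI in up to 1.06% of them). The libraries thus differ in sex-linked transcripts as well as in injury, and for every gene below the contributions of injury, sex and library cannot be told apart.

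Of 9729 genes tested, 1529 (15.7%) were at least 2-fold higher and 2528 (26.0%) at least 2-fold lower in injured cells, with a median log2 ratio of -0.20. With mitochondrial, ribosomal, haemoglobin and fibre genes left out of the totals, 2047 were higher and 1960 lower, so the balance of directions depended on the scaling. In a wide gate with no condition on Pi16, Smoc2, Sfrp4 and Myoc, which passed 352 injured and 670 uninjured cells, 1621 of 11057 genes (14.7%) were higher and 3102 (28.1%) lower (median -0.27), and 2128 and 2516 under the other totals. The injured comparison shares the Pi16-low cells with those above. At equal depth, 475 genes were higher and 534 lower in injured cells of the gate. The number of genes tested in that setting is not given, so list counts at equal depth below have no share of all genes beside them.

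Chemokine genes were among those furthest above in injured cells. Cxcl5, which draws neutrophils (chromosome 5, 90759360 to 90761624, plus strand), was found in 127 of 199 injured cells (63.8%), at 1440 CPM, and in 0 of 282 uninjured cells. It was 549-fold higher with the floor of 3 counts (interval, at least 446-fold), and 117-fold higher with that floor at equal depth. Ccl2 (monocyte chemoattractant) had 3513 CPM in injured and 77.0 CPM in uninjured cells, 45.6-fold higher (37.0 to 56.9). The leukocytes of the injured library had more of it, at 5246 CPM, and 68 of its 88 UMIs in uninjured cells lay in 5 cells. Il6 had 134 CPM in injured and 4.37 CPM in uninjured cells, 30.6-fold higher. Of 17 chemokine and cytokine genes, 9 were at least 2-fold higher and 5 lower (median 1.13), and at equal depth 6 of 13 were higher and 1 lower (median 0.86). Ccl11 was among the lower, 11.7-fold, and Cxcl14 had 2667 CPM in injured and 1381 CPM in uninjured cells, a ratio of 1.93 (1.83 to 2.04). Cxcl2, at 572 CPM in injured and 2.62 CPM in uninjured cells, had 15780 CPM in the leukocytes of the injured library, and immune markers summed to 255 CPM in injured and 40.2 CPM in uninjured cells, with 448 of 854 UMIs in 5 injured cells. Without barcodes that held 3 or more UMIs of other lineages, which left 30 injured and 153 uninjured cells, 8 of 14 chemokine and cytokine genes were higher and 3 lower (median 1.24).

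Genes other than chemokines were as far apart. Timp1, an inhibitor of matrix metalloproteinases, had 1428 CPM in injured and 30.6 CPM in uninjured cells, 46.6-fold higher (33.5 to 67.0). Tnc had 199 CPM in injured and 3.50 CPM in uninjured cells, 57.0-fold higher (22.1 to 210). Il1rl1, which encodes the interleukin-33 receptor, had 379 CPM in injured cells and 0 UMIs in uninjured cells. It was 144-fold higher with the floor of 3 counts (interval, at least 117-fold), while the ligand gene Il33 had a ratio of 0.938. Fosl1, a subunit of the AP-1 transcription factor, had 94.6 CPM in injured cells and 0 UMIs in uninjured ones. With the same floor it was 36.0-fold higher (interval, at least 29.1-fold). Of 9 hyaluronan genes, 5 were higher and 1 lower (median 1.15), with Has1 12.2-fold and the hyaluronan receptor Cd44 5.81-fold higher. In the wide gate only 2 of 9, Cd44 and Has1, were higher and 1 lower (median 0.53). At equal depth the log2 ratios were 5.96 for Timp1, 4.32 for Tnc and 5.58 for Ccl2.

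Genes of the Col15a1-type list were mostly lower in injured cells of the gate. Of 20 Col15a1-type genes, 17 lay at least 2-fold below and 0 above their uninjured level (median -2.25), and at equal depth 10 were lower and 1 higher (median -0.95). Col15a1 had 23.6 CPM in injured and 441 CPM in uninjured cells, 18.7-fold lower, and Apod 719 CPM in injured and 4403 CPM in uninjured cells, 6.13-fold lower. Apod was found in 27.1% of thinned injured cells and 78.7% of thinned uninjured ones, and Cxcl14, in 63.3% of injured and 31.2% of uninjured cells, went the other way. Pdgfra had 263 CPM in injured and 375 CPM in uninjured cells, a ratio of 0.700 (0.623 to 0.787), the smallest difference among the marker genes given for these cells. Lpl, the lipoprotein lipase of the fat lineage, was 13.2-fold lower. Itm2a, a membrane protein gene, was 24.2-fold lower (21.0 to 27.9), and the adhesion gene Lsamp 71.0-fold lower (29.6 to 222). Ramp1, a co-receptor subunit for the neuropeptide CGRP (43.8-fold), Clec3b (tetranectin, 23.7-fold), Scara5 (23.1-fold), Plekha6 (24.8-fold), Txnip (21.6-fold) and Nov (21.5-fold) were the next lower ones. At equal depth each of these stayed at least 2-fold lower, with log2 ratios between -1.31 for Scara5 and -2.75 for Clec3b. The uncharacterised 1500015O10Rik was 33.1-fold lower and, at equal depth, had a log2 ratio of -0.51, under the 2-fold limit; it led a tendon cluster of the uninjured library, and tenocyte markers summed to 389 CPM in injured and 753 CPM in uninjured cells. Acta1, a muscle fibre gene, was 27.7-fold lower, at 13.4 CPM in injured and 372 CPM in uninjured cells, and the 10 fibre markers summed to 48.9 CPM in injured and 1277 CPM in uninjured cells; their part in that value was not tested.

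Matrix genes were lower as a group. In injured cells all 7 fibrillar collagens and all 18 basement membrane genes measured lay at least 2-fold below uninjured cells (medians -2.18 and -1.95); at equal depth 5 of 7 and 6 of 15 were lower and 0 higher (medians -1.46 and -0.75). Col3a1 had 737 CPM in injured and 5728 CPM in uninjured cells, 7.77-fold lower, and Col1a1 379 CPM in injured and 3144 CPM in uninjured cells, 8.29-fold lower. Complement genes were lower in 10 of 11 (median -2.62), Wnt genes in 10 of 12 with 1 higher (median -2.51), and insulin-like growth factor genes in 10 of 11 (median -2.68), among them Igf1, a growth factor for muscle, 6.41-fold lower. At equal depth 5 of 9 complement, 3 of 8 Wnt and 5 of 9 insulin-like growth factor genes were lower and 0, 0 and 1 higher, with medians of -1.04, -0.70 and -1.02.

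The median of the cell cycle genes varied with the depth and with the cells that passed. Of 16 cell cycle genes, 13 were at least 2-fold higher and 2 (Cdkn1c and Cdkn1a, which encode inhibitors of the cycle) lower in injured cells (median 2.77), with small uninjured counts, such as 2 UMIs of the replication helicase gene Mcm5, against 239 in injured cells. With the same cells thinned to 1500 UMIs the median was 1.80, without other-lineage barcodes it was 0.44, and thinned before gating it was -0.76, with 0 of 5 higher and 2 lower. In the wide gate thinned before gating it was 1.04. Hells, a chromatin remodelling gene named for its ratio of 33.5 (11.4 to 164), had 3 UMIs in uninjured cells. Ribosomal protein genes kept their direction, with 16 of 18 higher (median 1.38) and, at equal depth, 4 of 18 higher (median 0.83).

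**Figure D5:**
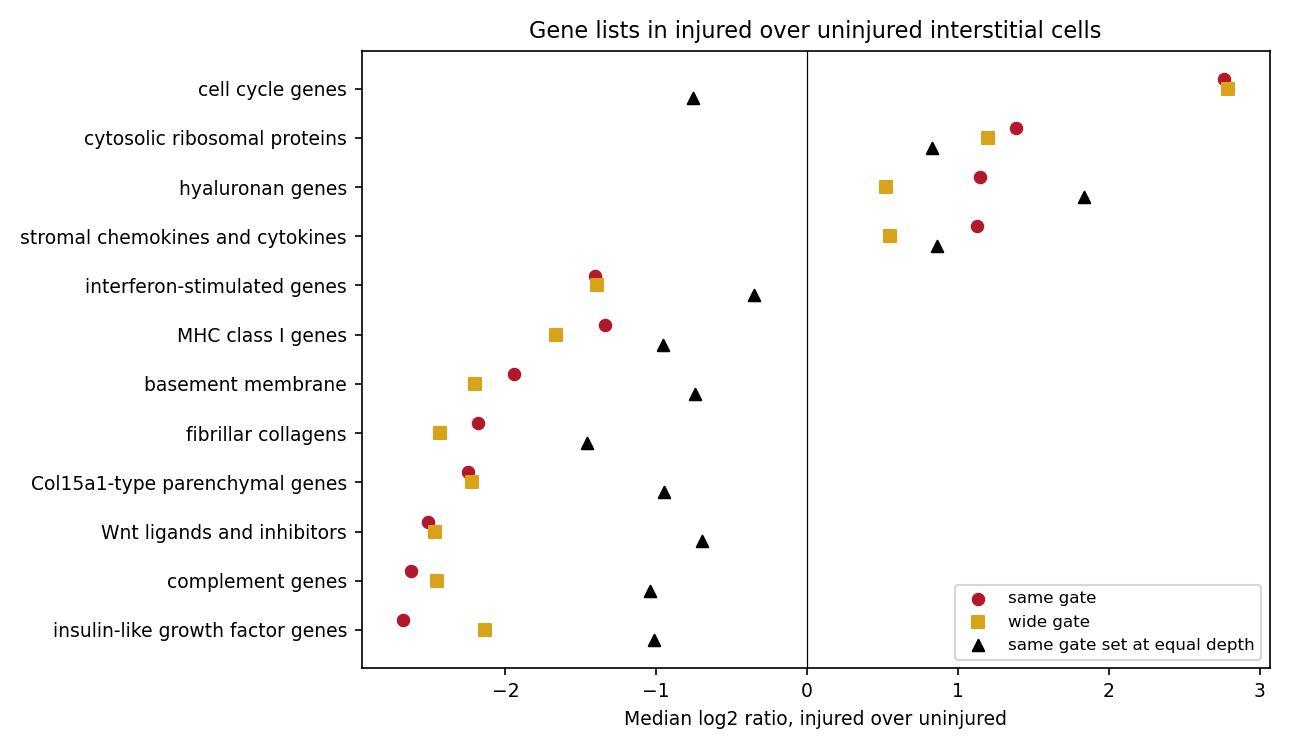
Median log2 ratio (horizontal axis) of 12 gene lists in injured over uninjured cells for the same gate (circles), for a wide gate with no condition on Pi16, Smoc2, Sfrp4 and Myoc (squares), and for the same gate set after thinning every barcode to 1843 UMIs (triangles). The fibrillar collagen list lay at -2.18, -2.44 and -1.46, and the cell cycle list at 2.77, 2.79 and -0.76, the last with other cells passing the gate as well as equal depth.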

How the data were processed

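The deposited files of the authors hold raw UMI counts per gene and barcode for 2 libraries made with 10x 3′ chemistry from muscle dissociated with proteases, per the labels' protocols. The submitters' processing notes name Cell Ranger 2.1.1 and mm10. Rows that share a symbol were summed (28692 rows, 28625 symbols). In the uninjured library 178 barcodes with fewer than 200 genes and 18 with over 20% mitochondrial UMIs were left out. Counts were summed per group. Levels have exact Poisson, shares Clopper-Pearson and ratios exact conditional binomial intervals at 95%. A gene was tested with 20 or more UMIs in both groups together, and a difference was called by size, at 2-fold. Genes named were the gate genes and given markers, the most abundant genes, members of the lists, and those furthest apart by ratio among genes with at least 100 UMIs in both groups and a UMI in at least 20% of the cells of the higher group (12 each way against Pi16-high cells, 6 against tendon-type cells, 10 for injury). Genes named within the sets of Pi16-low cells were chosen after their values were seen. Clusters came from 2000 variable genes, 30 components, 15 neighbours and Leiden at resolution 1 (scanpy 1.11.5, leidenalg 0.10.2, Python 3.11.15). Scrublet's own threshold marked 1 barcode per library, so doublets were not removed in the main values; leaving out the top scores is an alternative. The scripts were tested on simulated data. The cells, lists and comparisons were chosen with earlier results of these data known. A count of 0 is limited by 3 counts of the total. A few genes that these rules name are not reported here.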

Additional observations from a re-analysis of the deposited data

How the results depend on the processing

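No paired analysis was possible because each condition had 1 library. Alternatives left out doublet scores, haemoglobin-rich, nerve-list or other-lineage barcodes, or changed totals, depth, gates and minimum counts; thinning before gating, and leaving out nerve-list or haemoglobin-rich barcodes, were added after the data were seen. All 952 alternative values of the 56 named genes kept their direction, and 950 stayed past 2-fold. These genes were named for the furthest ratios and the alternatives reuse the same cells, so that outcome was largely fixed in advance. The gate passed 159 cells (6.26%) among barcodes as deep as the shallowest injured one, 153 (25.9% of the cells then left) without other-lineage barcodes, 3.81% with Pi16 at 0, 6.74% when thinned before gating and 4.54% without nerve-list cells. Genes higher and lower against Pi16-high cells numbered 303 and 239 at 50 UMIs or more and 1248 and 698 at 1 or more. Against tendon-type cells they numbered 605 and 320 at 50, with 1985 higher at 1, 699 higher when thinned after gating and 300 lower without other-lineage barcodes. In injured against uninjured cells of the gate they numbered 869 and 1187 without other-lineage barcodes (30 and 153 cells), 812 and 1030 when thinned after gating and 475 and 534 when thinned before it, with 1530 lower at 50 UMIs and 4013 at 1. In the wide gate they numbered 999 and 1793 and, thinned before gating, 797 and 1789, with 1063 higher without other-lineage barcodes. Of the 84 list medians past 2-fold, 3 changed sign: cell cycle -0.76 and tenocyte 1.57 (same gate, thinned first) and erythroid 0.28 (wide gate, without other-lineage barcodes). Of the 69 nearer 0, 25 did not keep their sign throughout, such as growth factors (-0.12 to 0.86), fat-lineage (-0.25 to 0.46) and glial genes (-1.34 to 2.20) against Pi16-high cells. Depth limits all of these, since a gene at 3 UMIs in the 282 cells is at the floor.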

Other observations

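Growth factor genes moved in both directions between the Pi16-low and the Pi16-high cells. Of 18 measured growth factor genes for muscle, nerve and vessel, 5 were at least 2-fold higher in Pi16-low cells (Ptn, Pdgfa, Mdk, Igf1 and Ntf3) and 4 lower (Il6, Fgf18, Fgf2 and Figf), with a median log2 ratio of -0.04 beside 0.09 over all genes. The heparin-binding growth factor Ptn (pleiotrophin) had 172 CPM in Pi16-low and 13.3 CPM in Pi16-high cells, 12.9-fold higher, but only 50 of the 282 cells held it and 1 of them held 43 UMIs. Its relative Mdk (midkine) had 172 CPM in Pi16-low and 40.8 CPM in Pi16-high cells, 4.21-fold higher (3.06 to 5.88). Igf1 had 547 CPM in Pi16-low and 241 CPM in Pi16-high cells, 2.27-fold higher (1.97 to 2.62), and Igfbp5, which binds it, was 2.06-fold lower. Tgfbr2, a TGF-beta receptor subunit, had 168 CPM in Pi16-low and 497 CPM in Pi16-high cells, 2.96-fold lower (2.51 to 3.50).

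Genes of the fat lineage did not move together. Of 18 measured, 6 were at least 2-fold higher in Pi16-low cells (Dlk1, Apod, Klf15, Apoe, G0s2 and Cebpa) and 1 lower (Plin2), while the median was -0.11 and changed sign among the alternatives. Dlk1, a membrane protein that holds preadipocytes undifferentiated, had 76.1 CPM in Pi16-low and 3.33 CPM in Pi16-high cells, 22.9-fold higher (8.62 to 85.9), and was found in 8.87% of Pi16-low cells. Apoe had 789 CPM in Pi16-low and 220 CPM in Pi16-high cells, 3.58-fold higher (3.12 to 4.12), with 3780 CPM in the leukocytes of the library. Of 11 heat shock and 7 cell cycle genes, 0 were 2-fold apart in either direction. Among 16 immediate early genes, which dissociation is known to induce, 3 were higher and 0 lower (median 0.46), and their sum was 9879 CPM in Pi16-low and 7726 CPM in Pi16-high cells.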
